A study of Rattus norvegicus and Bos taurus with 12 samples.

Results

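Tubulin isotype genes were followed in adult rat ventricular myocytes (ARVM) and in bovine right ventricular cardiac fibroblasts (Cfib). The 10 members were named by symbol, 5 α-tubulin genes (Tuba1a, Tuba1b, Tuba1c, Tuba4a and Tuba8) and 5 β-tubulin genes (Tubb2a, Tubb2b, Tubb4b, Tubb5 and Tubb6), and were taken from the deposited gene tables where the symbol was listed, in any case. All 10 were among the 7052 genes listed for ARVM, and 3 (TUBA1C, TUBA4A and TUBB4B) were among the 2115 genes listed for Cfib. The other 7 were not listed for Cfib, nor was TUBB, the other symbol of Tubb5, and their levels there were not analysed here.

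The ARVM came from Sprague Dawley rats and formed 2 groups of 3 libraries. One group was freshly isolated (labelled control, numbers 4, 5 and 6), and the other was kept for 7 days, per the labels, in medium conditioned by Cfib of calves with pulmonary hypertension (PH-CM, titled ha2, ha209 and ha211). The 2 Cfib groups of 3 libraries came from right ventricular free wall biopsies of neonatal calves, either control calves housed at Denver altitude (CO) or calves made hypertensive in reduced atmospheric pressure (PH). Both Cfib groups had been grown in serum and then held in serum-free medium at low passage, per the methods of the study. The labels' treatment field speaks of cow serum from low or high altitude for rat and bovine samples alike, which differs from the methods, and group names follow the methods. The ARVM contrast carries days in culture together with the medium, as ARVM kept in other media were not analysed here, and the effects of time and medium cannot be told apart.

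Microtubules are hollow polymers of α- and β-tubulin heterodimers, and each subunit is encoded by several genes, the isotypes, whose products differ mainly in their acidic C-terminal tails. In cardiac myocytes microtubules form a lattice between the myofibrils, carry organelles and cargo, and resist shortening, and in dividing cells they build the mitotic spindle. Tubulin mRNA levels are also controlled by the cell's own pool of free tubulin, through a surveillance factor (TTC5) that reads the start of the nascent chain. Tuba4a is known as an α-tubulin gene that lacks an encoded C-terminal tyrosine, and Tuba8 as an isotype of striated muscle, testis and brain.

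Both tables list only genes that the study had selected for a difference between the groups, so a call is a property of the table and not of tubulin. With limma on log2(value + 1) and an adjusted p under 0.05 over all listed genes, 97.6% of the ARVM genes and 97.5% of the Cfib genes passed, and in each table the groups did not overlap in 100% of the genes. What the data can show about the members is therefore their direction, the size of the change and the balance among isotypes. With 3 libraries per group, the smallest p of an exact two-sided permutation test is 0.1. The n of 3 counts libraries, and p-values measure the spread between them, which for ARVM may be technical, since the labels do not say whether the libraries came from separate animals. The Cfib libraries came from separate calves, per the study. The ARVM values are normalized counts, that is reads per gene divided by 1 size factor per library, with 12122463 to 18842171 reads on the listed genes. Counting error covers only part of the spread, since the chi-square per gene between libraries of 1 group ran from 11.2 to 38.4.

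In ARVM, 8 of the 10 members rose in PH-CM and 2 fell, against 53.9% of all listed genes called higher and 43.7% called lower. The fallers were Tuba4a and Tuba8, both α-tubulin genes. All 5 β-tubulin genes and the Tuba1a, Tuba1b and Tuba1c genes rose. Of the members, 5 rose by a log2 fold change of at least 1 (32.3% of all listed genes) and 2 fell by as much (16.0%). The median log2 fold change of the members was 1.001, beside 0.37 over all listed genes. The same 8 and 2 calls came from edgeR and DESeq2 on the recovered reads and from each fit that omitted 1 library. Listed genes had been selected on these same libraries and 97.6% of them were called, so the repeated calls are not independent support.

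**Figure D1:**
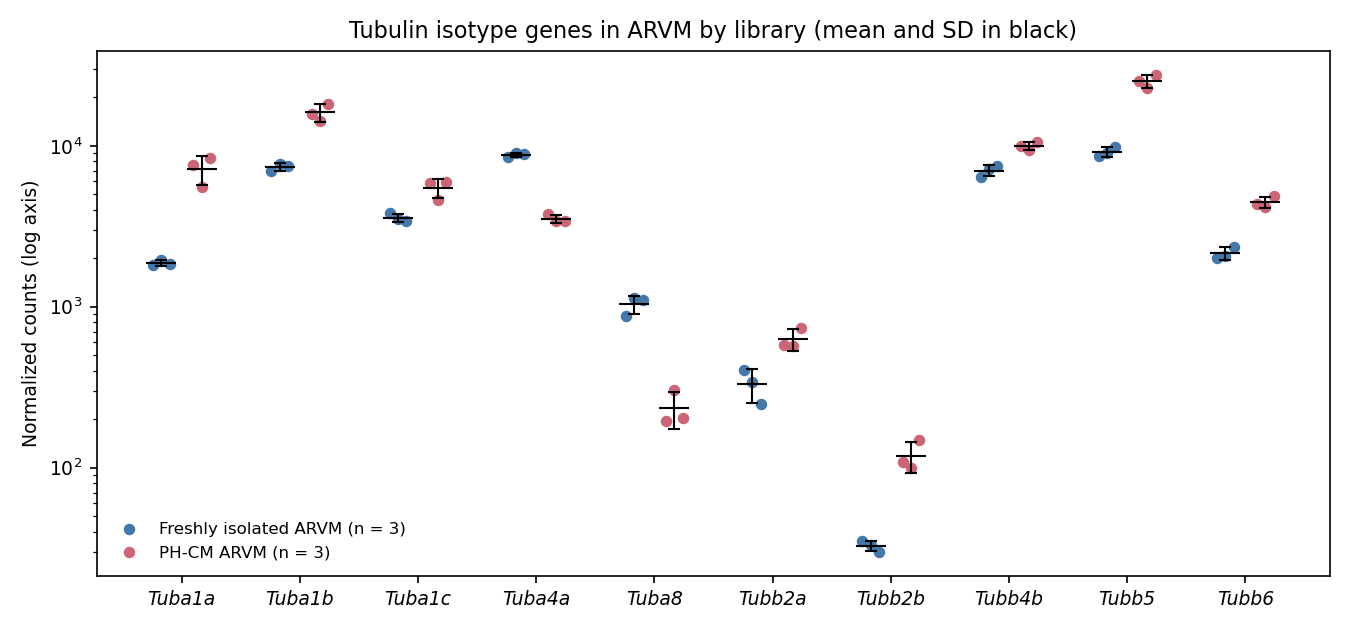
Normalized counts (log axis) of the 10 tubulin isotype genes in each ARVM library, with blue points for 3 freshly isolated and red points for 3 PH-CM libraries, and black marks for the mean and SD. Tuba4a and Tuba8 are the genes whose red points lie below the blue ones. In every gene the groups are apart, as in 100% of all listed ARVM genes.

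Among the α-tubulin genes, Tuba4a had 8489, 8979 and 8904 normalized counts in freshly isolated ARVM 4, 5 and 6 and 3750.2, 3402 and 3408 in PH-CM ARVM ha2, ha209 and ha211. The libraries of a group lay close together, with coefficients of variation of 3.003% and 5.66%, and the groups were far apart. The mean was 2.50-fold lower in PH-CM, a change of −1.32 in log2 (SE, the standard error, 0.06, limma-adjusted p = 7.71e-07).

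Tuba8 had 879.9, 1126 and 1094 normalized counts in the freshly isolated libraries and 195, 302 and 204 in PH-CM. Its highest PH-CM value was in ha209, still well under the lowest freshly isolated value. The mean was 4.42-fold lower, a change of −2.16 in log2 (SE 0.19, limma-adjusted p = 2.12e-05). Between these neighbours in direction, the log2 ratio of Tuba4a to Tuba8 went from 3.10 ± 0.15 (SD, n = 3) to 3.94 ± 0.40, without overlap (exact permutation p = 0.1, the smallest possible).

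Tuba1a, an α-tubulin gene known for its high level in developing neurons, had 1804, 1952 and 1836 normalized counts in freshly isolated ARVM and 7607, 5553 and 8409.8 in PH-CM. It had the largest rise of the members, 1.93 in log2 (SE 0.14, adjusted p = 8.45e-06 from limma), with more spread among the PH-CM libraries (coefficient of variation 20.5%) than among the freshly isolated ones (4.17%). Tuba1b, a broadly expressed α-tubulin, had 6948, 7716 and 7540.1 against 15867, 14275 and 18201 normalized counts. The log2 fold change of Tuba1b was 1.12 (SE 0.09, adjusted p = 1.91e-05 from limma).

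Tuba1c had 3795, 3523 and 3385 normalized counts in freshly isolated ARVM and 5882, 4597 and 5959 in PH-CM. It changed by 0.61 in log2 (SE 0.11, limma-adjusted p = 0.000877), the smallest of the α-tubulin genes. The log2 ratio of Tuba1a to Tuba1b went from −1.99 ± 0.05 (SD, n = 3) to −1.18 ± 0.16 and that of Tuba1a to Tuba1c from −0.94 ± 0.12 to 0.38 ± 0.11. Each ratio was higher in every PH-CM library than in any freshly isolated one (exact permutation p = 0.1). In all, 9 such ratios were computed in both experiments, and each had an exact permutation p of 0.1, also after Benjamini-Hochberg adjustment. For the ratio of Tuba1b, which rose, to Tuba4a, which fell, the lack of overlap followed from the selection of listed genes. In the GRCr8 assembly Tuba1a and Tuba1b are direct neighbours on chromosome 7, where Tuba1c also lies. Tuba1a, Tuba1b and Tuba1c encode closely similar proteins, though their sequences were not compared here. How reads that match more than 1 of them were assigned is not given in the sources used here. The split among them is therefore uncertain, and their sum is given with the shares.

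Among the β-tubulin genes, Tubb5, the common β-tubulin of many cell types, had 8668, 8990.0 and 9862 normalized counts in freshly isolated ARVM and 25434, 22943 and 27648 in PH-CM. The lowest PH-CM value was far over the highest freshly isolated one, and it changed by 1.46 in log2 (SE 0.09, limma-adjusted p = 2.99e-06). Tubb4b, also widely expressed, moved least of the members. It had 6386, 7194 and 7448 against 9980.1, 9366 and 10493 normalized counts, a change of 0.51 in log2 (SE 0.08, limma-adjusted p = 0.000426). The log2 ratio of Tubb5 to Tubb4b went from 0.39 ± 0.06 (SD, n = 3) to 1.35 ± 0.05 (exact permutation p = 0.1).

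Tubb6 had 1997, 2068 and 2364 normalized counts in freshly isolated ARVM and 4354, 4164 and 4859 in PH-CM, a change of 1.06 in log2 (SE 0.09, limma-adjusted p = 1.46e-05). Its rise was smaller than that of Tubb5, and the log2 ratio of Tubb6 to Tubb5 went from −2.10 ± 0.03 (SD, n = 3) to −2.51 ± 0.04.

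Tubb2a and Tubb2b were the members with the fewest reads in freshly isolated ARVM. Tubb2a had 407, 339.6 and 247 normalized counts in freshly isolated ARVM and 575, 573 and 742 in PH-CM, a change of 0.95 in log2 (SE 0.20, limma-adjusted p = 0.00235). Tubb2b had 34.8, 33.2 and 30.0 against 109, 99.2 and 148, a change of 1.81 in log2 (SE 0.26, limma-adjusted p = 0.000326), and rested on 22 to 31 reads per freshly isolated library. The RefSeq table for GRCr8 gives Tubb2b as another name of Tubb2a, and a further gene, Tubb2al1, lies between them on chromosome 17, so which locus each symbol of the table stands for is less sure than for the other members.

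The PH-CM libraries had the same order for all 8 genes that rose, with ha209 lowest and ha211 highest. That order was also the order of the summed level of 11 fibroblast marker genes, at 99882 normalized counts in ha209, 113149.7 in ha2 and 144553 in ha211. It was likewise the order of 8 genes of cycling cells, with sums of 2787, 3830 and 4780.0, and of the macrophage, smooth muscle and neuronal lists. The cardiomyocyte markers had another order, with sums of 114024 in ha211, 128443 in ha209 and 138012 in ha2, as had the endothelial markers, with 3232 in ha2, 3628 in ha211 and 3728 in ha209. With 3 libraries such an order is a description only.

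As RNA of a whole preparation was sequenced, fewer cells of a type and less RNA per cell cannot be told apart. All 11 listed cardiomyocyte markers were lower in PH-CM, by a median of −3.60 in log2, and their sum went from between 1632079.7 and 1657757 to between 114024 and 138012 normalized counts. None of these markers was at 0 in all PH-CM libraries. Tnnt2, cardiac troponin T, named after its value was seen, had 167134 ± 3288 normalized counts (SD, n = 3) in the control group and 32124 ± 1903 in PH-CM. Its log2 fold change of −2.38 was smaller in size than the marker median, and the 11 markers ran from −0.66 (Pln) to −6.62 (Mb). Both tubulin genes that fell, Tuba4a at −1.32 and Tuba8 at −2.16, did so by less than the marker median but within the range of the markers. All 11 fibroblast markers were higher (their sum was 1800 to 2393 in the freshly isolated libraries, then 99882 to 144553). So were all 8 genes of cycling cells (66.1 to 135 and 2787 to 4780.0), 7 of 7 listed macrophage and leukocyte markers (232 to 245 and 6482 to 9636) and 6 of 8 smooth muscle and pericyte markers (3947 to 4683 and 32036 to 50589). Of 7 endothelial markers, 6 were lower (8137 to 9986 and 3232 to 3728). Both listed markers of Schwann and neuronal cells, 1 of them Tubb3, were higher (108 to 239.9 and 2157 to 2559). The 3 listed erythroid genes were at 0 in PH-CM, after 2097 to 2493. Over all listed ARVM genes, 53.9% were called higher and 43.7% lower. The part of other cell types in the tubulin values was not tested.

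The balance among isotypes was read as each member's share of the summed normalized counts of its own family. The counts are not divided by transcript length, so a share can be compared between groups but not between genes. In the α family, Tuba4a went from 38.8% ± 0.294 (SD, n = 3) to 10.9% ± 1.37 and Tuba8 from 4.55% ± 0.465 to 0.741% ± 0.288. Tuba1a went from 8.23% ± 0.156 to 21.9% ± 1.92 and Tuba1b from 32.7% ± 0.823 to 49.6% ± 1.68. These 4 shares did not overlap between the groups (exact permutation p = 0.1 for each, the smallest possible). Tuba1c kept an overlapping share, 15.8% ± 1.34 and 16.8% ± 0.729 (exact permutation p = 0.3). With Tuba1a, Tuba1b and Tuba1c summed, which removes the uncertain split of reads among them, their joint share went from 56.6% ± 0.590 to 88.3% ± 1.60 (exact permutation p = 0.1). These genes each rose and Tuba4a and Tuba8 each fell without overlap, as the selection of listed genes required. The lack of overlap in the joint share and its p were thus fixed in advance. Tuba4a made up most of what the joint share leaves, so the same holds nearly in full for the share of Tuba4a. For both shares, only the size of the change is informative.

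In the β family, Tubb5 went from 49.1% ± 0.709 (SD, n = 3) to 62.5% ± 0.676 and Tubb4b from 37.5% ± 1.07 to 24.6% ± 0.656, each without overlap (exact permutation p = 0.1). Tubb4b thus had a higher count and a lower share in PH-CM. Tubb2b went from 0.176% ± 0.0245 to 0.291% ± 0.0400 (exact permutation p = 0.1). As the loci behind the Tubb2a and Tubb2b symbols are less sure, their sum was also read, most of which is Tubb2a. The joint share was 1.97% ± 0.569 and 1.84% ± 0.171, which overlapped (exact permutation p = 0.8). The shares of Tubb6, 11.5% ± 0.372 and 11.0% ± 0.229 (exact permutation p = 0.2), and of Tubb2a, 1.80% ± 0.544 and 1.55% ± 0.134 (exact permutation p = 0.6), overlapped.

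**Figure D2:**
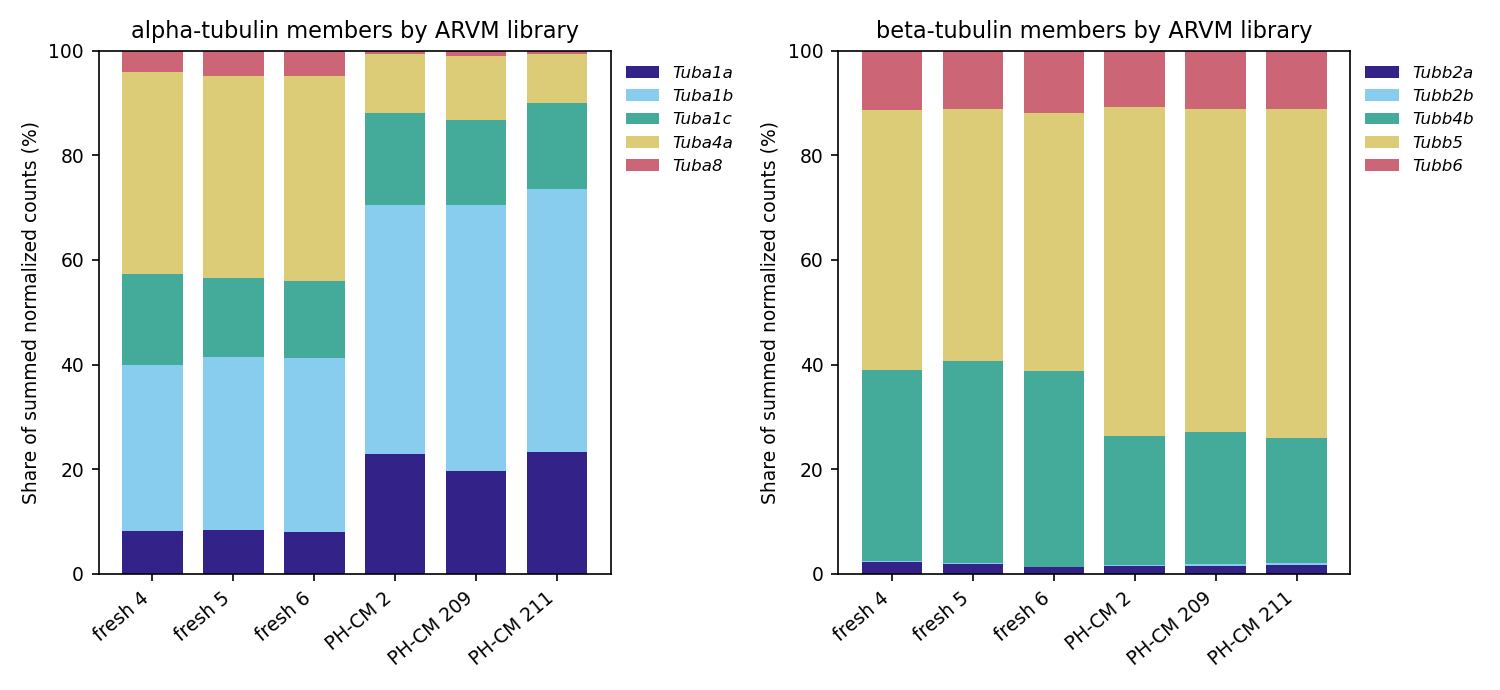
Share in percent of each tubulin gene in the summed normalized counts of the α-tubulin members (left) and the β-tubulin members (right), with 1 bar per ARVM library, 3 freshly isolated and 3 PH-CM. The Tuba4a part of the α bars is near 38.8% in freshly isolated and near 10.9% in PH-CM libraries, and the Tubb5 part of the β bars is near 49.1% and 62.5%.

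Summed over the 10 members, ARVM had 39408 to 42709.6 normalized counts per freshly isolated library and 65274 to 80072 per PH-CM library, and the PH-CM mean was 1.77 times the freshly isolated mean. The α sum was 1.44 times and the β sum 2.17 times the freshly isolated mean. The ratio of the α sum to the β sum was 1.14 to 1.25 before culture and 0.757 to 0.824 in PH-CM ARVM, a change in the ratio and not a statement on the balance of the proteins. The members took 0.205% to 0.231% of the normalized counts of all listed genes before culture and 0.475% to 0.562% after PH-CM.

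To show the members' upstream sequence, the 170 bases before the transcription start are printed for Tuba1a, Tuba1b and Tubb5, which rose and gained share, and for Tuba4a and Tuba8, which fell. They are from RefSeq on GRCr8, which is not the rn6 build of the reads, at chr7:131995820-131995989 (minus strand), chr7:131972588-131972757 (minus strand), chr20:2917407-2917576 (plus strand), chr9:84162585-84162754 (minus strand) and chr4:156112102-156112271 (plus strand). Capitals mark matches, on either strand, to the CCAAT box (CCAAT), the GC box (GGGCGG) and the TATA box (TATAAA), and none of these matches overlaps another. Tuba8 has none.
Tuba1a: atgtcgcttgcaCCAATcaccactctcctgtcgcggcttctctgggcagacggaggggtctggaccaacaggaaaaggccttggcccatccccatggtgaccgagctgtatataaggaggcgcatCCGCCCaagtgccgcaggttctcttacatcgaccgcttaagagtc
Tuba1b: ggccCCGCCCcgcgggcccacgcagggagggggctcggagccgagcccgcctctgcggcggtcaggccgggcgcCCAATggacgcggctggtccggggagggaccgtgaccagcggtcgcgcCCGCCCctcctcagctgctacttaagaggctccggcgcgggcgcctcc
Tubb5: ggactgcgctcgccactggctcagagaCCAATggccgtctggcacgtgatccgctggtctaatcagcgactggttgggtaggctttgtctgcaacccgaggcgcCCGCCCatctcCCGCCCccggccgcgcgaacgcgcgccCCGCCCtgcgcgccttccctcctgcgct
Tuba4a: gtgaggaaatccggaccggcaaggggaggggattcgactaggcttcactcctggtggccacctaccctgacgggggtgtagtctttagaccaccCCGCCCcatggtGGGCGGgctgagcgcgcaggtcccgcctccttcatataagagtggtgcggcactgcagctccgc
Tuba8: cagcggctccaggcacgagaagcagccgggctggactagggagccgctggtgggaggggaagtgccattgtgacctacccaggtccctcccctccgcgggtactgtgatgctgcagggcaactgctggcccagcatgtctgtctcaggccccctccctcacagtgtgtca

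Of the 10 members, 7 had a CCAAT match within 250 bases before an annotated start, as had 36.1% of all 27457 rat genes given by RefSeq. The members without it were Tuba4a, Tuba8 and Tubb2a, of which Tubb2a rose. A GGGCGG match was in 8 members (33.5% of all genes), a TATAAA match in Tubb2a and Tubb4b (14.1%) and the cell cycle element TTTGAA in Tuba1c and Tubb4b (17.2%). The CArG box and the MEF2 site, both known from muscle genes, were in 0 members (1.62% and 3.32% of all genes). A match describes the letters of this window and shows no binding.

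The other listed tubulin genes of ARVM all rose, where 53.9% of all listed genes were called higher. Tubb3, the β-tubulin used as a marker of neurons, had 61.7, 83.5 and 102 normalized counts in freshly isolated ARVM and 532, 515 and 737 in PH-CM, a change of 2.85 in log2 (SE 0.23, limma-adjusted p = 1.61e-05). Its lowest PH-CM level was 5.04 times the highest freshly isolated one, a wider gap than for any of the 10 members. Tubg1, the γ-tubulin of microtubule nucleation, had a log2 fold change of 0.68 (SE 0.14). Tubg2 (4.32, standard error 0.86) and Tube1, the ε-tubulin of centrioles (3.45, standard error 0.43), started from few reads, with 0 to 12.4 and 4.75 to 13.9 normalized counts in the freshly isolated libraries.

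Genes whose products fold, modify and bind tubulin were found in both directions, as were all listed ARVM genes, of which 53.9% were called higher and 43.7% lower. Of 23 genes for tubulin folding (the CCT chaperonin, prefoldin, the cofactors and Ttc5), 8 were listed. They split into 3 that rose and 5 that fell (median −0.18 in log2), with no value past 0.33 in size. Tbcd, a cofactor that assembles the heterodimer, had 710.2 ± 18.4 normalized counts (SD, n = 3) before culture and 896 ± 112 after PH-CM (log2 fold change 0.33, adjusted p = 0.0158 from limma). Its call was lost without ha2 (limma-adjusted p = 0.0613) and without ha211 (0.0546). Tbca had a log2 fold change of 0.31 and Cct7 one of 0.30. The count of 5 lower genes became 2 without freshly isolated library 6 and 3 without ha2.

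Of 19 tubulin modifying enzymes, 6 were listed. They split into 4 that rose and 2 that fell (median 1.06 in log2). Vash2, a tyrosine carboxypeptidase that removes the last residue of α-tubulin, had 72.4 ± 7.10 normalized counts (SD, n = 3) before culture and 249.6 ± 86.8 after PH-CM, a log2 fold change of 1.72 (SE 0.27). Agtpbp1, which trims glutamate side chains, was 2.99-fold lower, with a log2 fold change of −1.59 (SE 0.11). Ttll1, a polyglutamylase, had a log2 fold change of 1.45. The other gene that fell, Ttl, the ligase that puts the tyrosine back, was named after its value was seen. It went from 972 ± 87.9 to 399 ± 57.6 normalized counts, a log2 fold change of −1.29 (SE 0.13).

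Of 27 microtubule-associated and plus-end genes, 17 were listed. They split into 7 that rose and 10 that fell (median −0.45 in log2). The largest changes were rises from low counts. Dclk1, a doublecortin-like kinase, had a log2 fold change of 3.39, Map7d2 one of 2.23 and Clip2, a plus-end linker, one of 1.64. Of 14 destabilising and severing genes, 6 were listed. They split into 5 that rose and 1 that fell (median 1.73 in log2). Stmn2, a stathmin of neurons that sequesters tubulin, had 0 reads in freshly isolated ARVM and 172 ± 84.3 normalized counts (SD, n = 3) in PH-CM, at least 145-fold higher when the whole control group is set at a floor of 3 reads (counting error only). Kif2c, a mitotic depolymerase, went from 2.31 ± 2.75 to 203 ± 37.2 and Stmn4 had a log2 fold change of 1.93.

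Of 16 nucleation genes, 8 were listed. They split into 6 that rose and 2 that fell (median 0.76 in log2). Tubg2, Tpx2, a spindle assembly factor (log2 fold change 3.30, standard error 0.23), and Lgals3bp, a secreted glycoprotein (1.67, standard error 0.11) had the largest changes. Of 22 dynein and dynactin genes, 14 were listed. They split into 2 that rose and 12 that fell (median −0.40 in log2). Dynll1, a light chain with many partners besides dynein, was the largest at 1.63 (SE 0.08), whereas Dctn6 and Dync1li1 had log2 fold changes of −0.69 and −0.67. Over all listed ARVM genes, 53.9% were called higher and 43.7% lower. The study selected the listed genes on these libraries, so no list count is independent evidence of a direction.

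**Figure D3:**
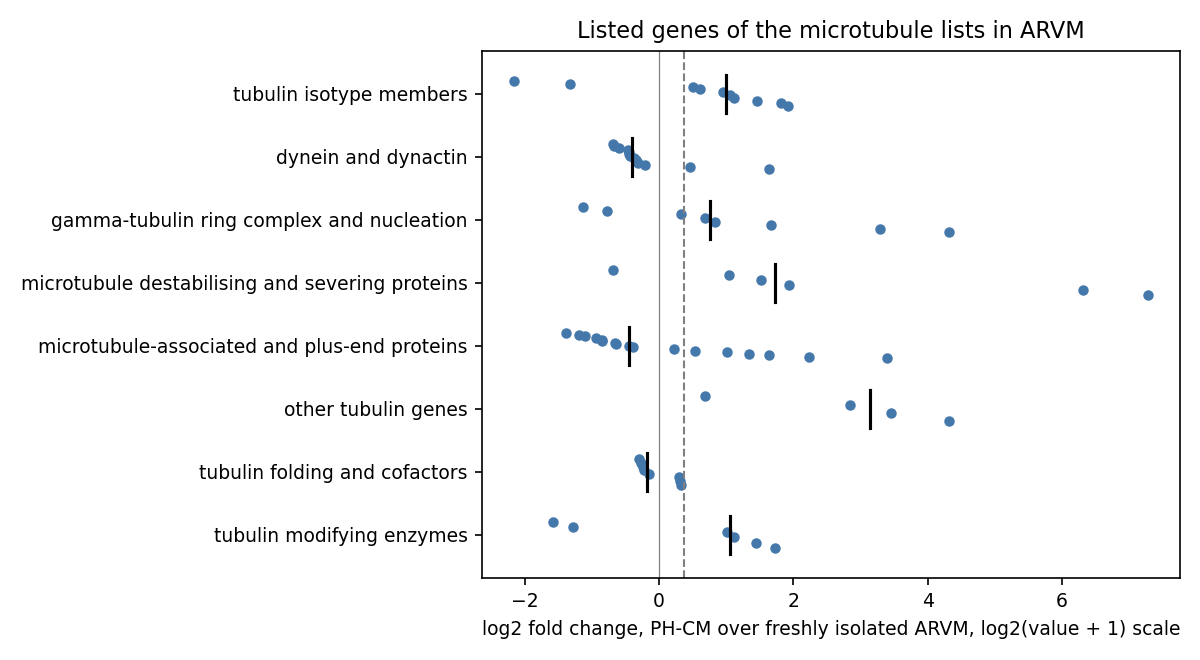
Log2 fold changes between PH-CM and freshly isolated ARVM, on the log2(value + 1) scale, of the listed genes in the tubulin isotype members and 7 microtubule lists, with 1 point per gene, a black bar for the list's median and a dashed line for the median of all 7052 listed genes (0.37). The members' median is 1.001, with Tuba4a and Tuba8 as the points under 0. Of 14 dynein and dynactin genes 12 are under 0, beside 43.7% of all listed genes called lower.

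The genes closest in profile to the extreme members were found by the root-mean-square difference of gene-centred log2 values over the 6 ARVM libraries, among 6757 genes. Nearest to Tuba1a were Actg1, a cytoskeletal actin (difference 0.066), Csrp1 (0.0705) and Igfbp7 (0.0758). Nearest to Tuba8 were Aamdc (0.0997), Bcl11a (0.112) and Mypn, a sarcomeric Z-disc protein (0.117). These distances describe 6 libraries of 2 groups and carry no test.

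In Cfib, all 3 listed members fell in PH, against 39.4% of all listed genes called lower and 58.2% called higher. Of these, 2 fell by a log2 fold change of at least 1 (14.3% of all listed genes) and 0 rose by as much (19.7%), and the median of the members was −1.43 beside 0.33 over all listed genes. The Cfib values were read here as levels per gene length, but their unit is not stated in the sources used here. Levels can be compared between genes only if that reading holds, and the depth of the libraries is unknown.

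TUBB4B had a signal of 104, 125 and 126 in CO Cfib 1, 2 and 3 and of 41.6, 40.3 and 42.7 in PH Cfib 1, 2 and 3. The PH libraries differed little from each other (coefficient of variation 2.87%, against 10.3% in CO) and lay far under the CO ones. The mean was 2.85-fold lower, a change of −1.48 in log2 (SE 0.09, limma-adjusted p = 1.89e-05). TUBA1C had 16.3, 20.0 and 22.5 in CO and 9.36, 10.5 and 8.50 in PH Cfib, a change of −0.97 in log2 (SE 0.13, limma-adjusted p = 0.000610), or −0.60 at a pseudocount of 10.

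TUBA4A had 2.32, 3.85 and 3.92 in CO and 0.580, 0.630 and 0.560 in PH Cfib, the lowest PH values of the 5 listed tubulin genes. The mean was 5.70-fold lower, whereas the log2 fold change at a pseudocount of 1 was −1.43 (SE 0.16, adjusted p = 0.000264 from limma). For a value this low the pseudocount sets the size, and the log2 fold change was −2.29 at 0.1 and −0.33 at 10. With median-of-ratios size factors for the libraries, Cfib log2 fold changes shifted by a median of −0.27 and all listed genes split into 840 higher and 869 lower in place of 1230.0 and 833, while TUBB4B was at −1.77, TUBA1C at −1.24 and TUBA4A at −1.59.

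The other β-tubulin genes listed for Cfib fell as well, where 39.4% of all listed genes were called lower. TUBB4A, a brain isotype in the textbook account, had a signal of 18.7, 17.9 and 16.0 in CO and 3.68, 3.91 and 4.01 in PH Cfib, a change of −1.93 in log2 (SE 0.08, limma-adjusted p = 7.19e-06). TUBB3 had 2.90, 2.97 and 3.04 against 1.64, 1.85 and 1.25, a change of −0.63 in log2 (SE 0.10, limma-adjusted p = 0.00143). A pseudocount of 10 gave −0.99 for TUBB4A and −0.16 for TUBB3, and one of 0.1 gave −2.15 and −0.88. TUBB4A and TUBB4B encode similar proteins. Their sequences were not compared here, and whether reads were split between them is not known.

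**Figure D4:**
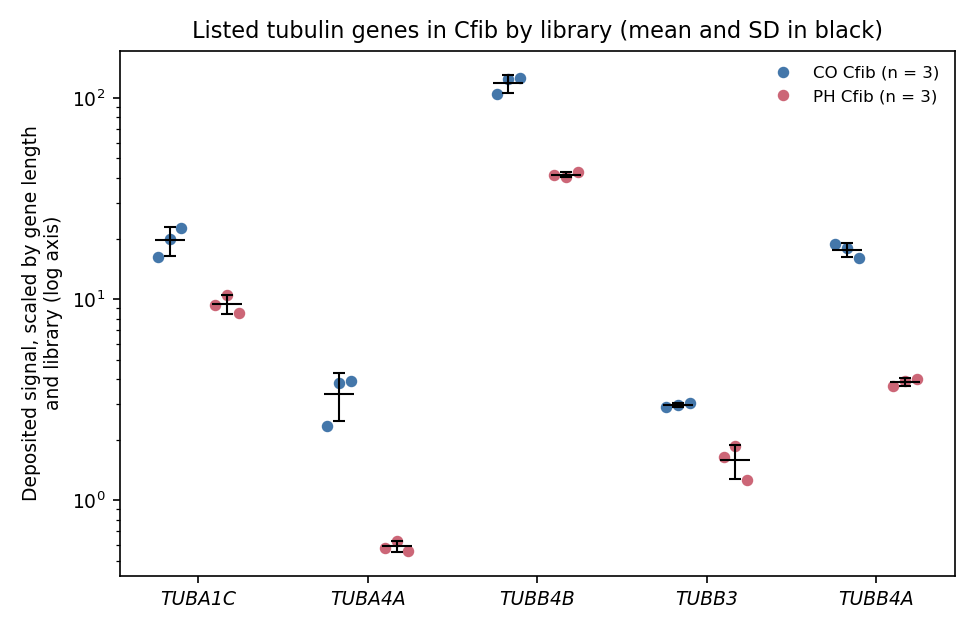
Deposited signal, read as scaled by gene length and library (log axis), of the 5 tubulin genes listed for Cfib in each library, with blue points for 3 CO and red points for 3 PH libraries and black marks for the mean and SD. In all 5 genes the red points lie under the blue ones, and TUBB4B has the highest signal in both groups. The groups were apart in 100% of all listed Cfib genes, and 39.4% were called lower.

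By the deposited signal, if it is a level per length, TUBB4B led in CO Cfib. TUBA1C and TUBB4A followed with overlapping ranges, and then TUBA4A and TUBB3, whose ranges also overlapped. In PH Cfib the order was TUBB4B, TUBA1C, TUBB4A, TUBB3 and TUBA4A, with no overlap between neighbours. Of the summed signal of the 3 listed members, TUBA1C had 13.8% ± 0.802 (SD, n = 3) in CO and 18.3% ± 1.96 in PH Cfib, TUBA4A had 2.35% ± 0.398 and 1.14% ± 0.0737, and TUBB4B had 83.8% ± 1.08 and 80.6% ± 2.04 (exact permutation p = 0.1 for each). When TUBB3 and TUBB4A were counted too, the share of TUBB4B was 73.1% ± 0.792 and 72.9% ± 2.20, which overlapped (exact permutation p = 0.8). Isotypes that were not listed are missing from both sums. The log2 ratio of TUBA1C to TUBA4A went from 2.57 ± 0.22 to 3.997 ± 0.07, without overlap (exact permutation p = 0.1).

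The listed genes of cycling cells fell with the tubulins in Cfib. All 6 listed of 8 were lower in PH, and their summed signal went from between 194 and 299 to between 17.2 and 19.8. The 4 listed of 11 fibroblast markers were higher (2225 to 3129 and 7245 to 7575), as were 4 of 5 listed smooth muscle and pericyte markers (97.4 to 133 and 225 to 236). Of macrophage and leukocyte markers 1 was higher and 1 lower. No cardiomyocyte, endothelial or erythroid marker was listed, and of the Schwann and neuronal markers only TUBB3 was. Over all listed Cfib genes, 58.2% were called higher and 39.4% lower. The part of cell division in the tubulin values was not tested.

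Few partners of tubulin were listed for Cfib, where 58.2% of all listed genes were called higher and 39.4% lower. Of the destabilising and severing genes, 6 were listed. They split into 1 that rose and 5 that fell (median −0.86 in log2). KIF2C went from 12.1 ± 1.89 (SD, n = 3) to 0.481 ± 0.0928, −3.14 in log2, and SPAST, the severing enzyme spastin, had a log2 fold change of 0.30. SPAST was no longer called after that rescaling (0.04 in log2, limma-adjusted p = 0.673). It was also not called without PH library 3 (limma-adjusted p = 0.0576). A pseudocount of 10 gave 0.16 for SPAST and −1.07 for KIF2C, which was at −4.39 with 0.1. Of the nucleation genes 2 were listed and both fell, TPX2 with a log2 fold change of −1.84 and MZT1, a small subunit of the γ-tubulin ring complex, with −0.80 (−0.48 at a pseudocount of 10). CCT3, a chaperonin subunit, was the listed folding gene, with a log2 fold change of −0.69 (SE 0.11).

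Of the microtubule-associated and plus-end genes 4 were listed. They split into 2 that rose and 2 that fell (median −0.06 in log2). MTUS1 and the plus-end protein MAPRE1 had log2 fold changes of −0.47 and −0.46, which were −0.73 and −0.75 after rescaling. MAPRE3 had one of 0.35, which was 0.08 and not called after rescaling (adjusted p = 0.332 from limma). At a pseudocount of 10, MTUS1 was at −0.27 and MAPRE3 at 0.23. Without PH library 1, or at a pseudocount of 0.1, 1 gene of this list was called higher in place of 2. Of the dynein and dynactin genes 3 were listed. They split into 1 that rose and 2 that fell (median −0.18 in log2). NDEL1 had a log2 fold change of 0.47, DYNLL2 of −0.45 and DCTN5 of −0.18. With median-of-ratios factors they were at 0.19, −0.73 and −0.46. DCTN5 was not called without CO library 1 (limma-adjusted p = 0.0729) or 2 (0.0586), or without PH library 1 (0.103) or 2 (0.0889). No tubulin modifying enzyme was listed for Cfib.

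The genes closest in profile to TUBB4B, the member with the largest fall in Cfib at a pseudocount of 1 (by the ratio of means TUBA4A fell further), were DSN1, a kinetochore protein (root-mean-square difference 0.058), DIAPH3, a formin (0.0812), and C5H12orf75 (0.0821), among 1231 genes over 6 libraries.

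Set side by side, Tuba4a was lower in PH-CM ARVM and in PH Cfib, by 2.50-fold and 5.70-fold in the means. Its log2 fold change was −1.32 in ARVM and −1.43 in Cfib, where it ran from −2.29 to −0.33 with the pseudocount. Tuba1c and Tubb4b were higher in PH-CM ARVM (0.61 and 0.51) and lower in PH Cfib (−0.97 and −1.48). The experiments differ in species, cells, treatment and unit, so the difference between them was not tested.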

How the data were processed

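RNA from 12 libraries, 3 in each of 4 groups, was sequenced on a HiSeq4000 after depletion of ribosomal RNA. The authors aligned reads to RN6 or BosTau8 with HISAT2 and StringTie (versions not given in the sources used here), normalized counts with DESeq2, kept genes above 1 in a condition and called differences at a p-value under 0.05 by an unequal-variance test, and the deposited tables list such selected genes. The deposited ARVM signal is a read count divided by a size factor. Whole reads were recovered for 100% of values within 0.01 reads in every library, with 1 read as the smallest value in 5 libraries and 2 reads in ha211. The deposited Cfib signal was read as a length-scaled level of the FPKM or TPM kind. Its unit is not stated in the sources used here, so this reading was not settled and depth is unknown.

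Groups were compared over all listed genes by limma 3.58.1 (R 4.3.3, trended eBayes) on log2(value + 1), with Benjamini-Hochberg adjustment at 0.05. With edgeR 4.0.16 (quasi-likelihood, TMM) and DESeq2 1.42.0 the recovered reads were tested as alternatives. Shares and ratios were computed in Python 3.11.15 and scipy 1.17.1 with two-sided exact permutation tests. Transcript lengths were not used here. The members and gene lists were chosen with earlier results of these data known. Beside the members, the text names every other listed tubulin gene, up to 3 called genes per list with the largest change (mean of 10 or more in either group), and 3 genes nearest in profile to the member with the largest rise and fall. One gene that the rule names is not reported here. On simulated data with 200 changed genes (log2 fold change 2), limma recovered 200 with 5 other calls among 7052 genes at the ARVM design and 200 with 9 among 2115 at the Cfib design, and edgeR and DESeq2 recovered 200 and 200 at the ARVM design. The changed genes were drawn from those with a mean at or above the median, with a fixed spread and all other genes unchanged. The deposited tables differ in each respect, so this checks the code and not the error rate there. The alternatives were other pseudocounts (0.1 and 10), a minimum mean (50 or 5), an untrended eBayes, median-of-ratios factors, omission of each library, PH libraries averaged (added after seeing the data), a replicate block, a minimum log2 fold change of 1, summed paralogs and further tubulin genes in the Cfib shares.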

Additional observations from a re-analysis of the deposited data

How the results depend on the processing

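Listed genes had been selected on these same libraries, so calls repeated under an alternative are not independent support. The counts of members called, 8 higher and 2 lower in ARVM and 3 lower in Cfib, were the same under each alternative run but 2. A minimum mean of 5 leaves TUBA4A untested in Cfib, with 2 members lower. A required log2 fold change of at least 1 left 5 members higher in ARVM and 2 lower in Cfib, 2278 higher and 1127 lower among all ARVM genes, and 417 higher and 303 lower among all Cfib genes. With the PH libraries averaged into 1 sample, chosen after seeing the data, 529 Cfib genes were higher and 509 lower. That fit takes its spread from the CO libraries alone and says nothing on stability. With each library left out in turn, ARVM members called stayed at 8 higher and 2 lower and Cfib members at 0 higher and 3 lower. All listed ARVM genes called ran from 3535 to 3728 higher and 2917 to 3000 lower, and Cfib genes from 1135 to 1224 higher and 767 to 828 lower. The share of Tuba4a changed by −28.5 to −27.1 percentage points, and that of TUBB4B by −4.27 to −2.23. The latter was −0.236 when all listed α- and β-tubulin genes were counted. The difference for Tubb2a, −0.243 points, ran from −0.522 (without freshly isolated library 6) to 0.0217 (without library 4).

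Libraries of equal number in Cfib correlated in their deviations by 0.258, 0.0312 and 0.259, so the numbers were not taken as pairs. With a replicate block 1983 Cfib genes passed against 2063, 3 members stayed lower, and DCTN5 was lost (adjusted p = 0.0752 from limma). No paired analysis was possible in ARVM because its groups share no numbers. Shares per transcript or coding length were not run, as no transcript or protein lengths were used here. Tubb2b, with at most 31 reads per freshly isolated library, is the member most limited by depth.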
